A study of Mus musculus with 192 samples.

Results

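The midbrain and the hindbrain of nontransgenic mice (NON) were compared at T1 and T2 in 12 pairs of RNA pools, 5 at T1 and 7 at T2. These 24 pools were chosen by their labels (genotype NON, hindbrain or midbrain, T1 or T2) out of 192 pools in the series, and each midbrain pool was paired with the hindbrain pool of the same time point and the same mice. Each pool held RNA of 2 mice mixed in equal amounts, except pool 6 of T1, which held 1 mouse. The 12 pairs therefore came from 23 male mice on the FVB/n background, none of which carried the transgene of the L44 line, a modified human amylin gene whose product has prolines in place of other residues (tripro-hA). They were bred alongside hemizygous (HEM) and homozygous (HOM) L44 mice and served as littermate or age-matched controls. The 9 mice of T1 were 99 to 101 days old. The 14 mice of T2 were 90 to 286 days old (median 173), because T2 was set by the onset of diabetes in transgenic mice and the NON mice were taken as controls for that time point. Of the 12 pairs, 4 were collected in the morning (AM) and 8 in the afternoon (PM).

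The hindbrain pieces included the cerebellum, and the midbrain pieces included the forebrain and hypothalamus. The cortices were separate pieces. The comparison is therefore between large mixed pieces of brain, and the piece called midbrain is wider than the anatomical midbrain. Neurons in the arcuate nucleus and the lateral zone of the hypothalamus make most of the brain's feeding peptides, such as agouti-related peptide, orexin and melanin-concentrating hormone. Amylin is a hormone of pancreatic β-cells that curbs feeding, and it binds receptors formed by the calcitonin receptor together with a receptor activity-modifying protein (Ramp). One of its best described sites of action, the area postrema, lies in the hindbrain. Leptin acts through Jak2 and Stat3, and insulin through its receptor, the receptor substrates and the Akt kinases. The 43 genes measured were chosen by the study to cover these pathways, so they are no sample of the transcriptome.

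The promoters of 4 genes with the largest differences between the pieces are shown here because the results below turn on these genes. Each is the window given with RefSeq for a start site of the gene, from 250 bases before it to 50 bases after it, 300 bases in the GRCm38.p6 assembly, and capitals mark the letters TATAAA, a core promoter motif, where a search of both strands found them. The Mch window (RefSeq symbol Pmch) is chr10:88090822-88091121 on the plus strand, the Hcrt window chr11:100762882-100763181 on the minus strand, the Npy window chr6:49822460-49822759 on the plus strand and the Ramp3 window chr11:6658283-6658582 on the plus strand. The Ramp3 window is set on a start site a little downstream of the first base of the gene record (6658506).
Mch: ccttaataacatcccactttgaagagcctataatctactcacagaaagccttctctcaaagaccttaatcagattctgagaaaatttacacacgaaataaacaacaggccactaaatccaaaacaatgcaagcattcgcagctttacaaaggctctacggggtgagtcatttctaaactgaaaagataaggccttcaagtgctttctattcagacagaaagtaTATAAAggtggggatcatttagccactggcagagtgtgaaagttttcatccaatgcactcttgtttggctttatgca
Hcrt: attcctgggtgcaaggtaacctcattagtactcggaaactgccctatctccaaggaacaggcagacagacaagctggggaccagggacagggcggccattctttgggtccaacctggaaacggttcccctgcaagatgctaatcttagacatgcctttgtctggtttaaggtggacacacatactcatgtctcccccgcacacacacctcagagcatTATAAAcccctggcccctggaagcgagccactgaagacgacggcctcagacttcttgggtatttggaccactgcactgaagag
Npy: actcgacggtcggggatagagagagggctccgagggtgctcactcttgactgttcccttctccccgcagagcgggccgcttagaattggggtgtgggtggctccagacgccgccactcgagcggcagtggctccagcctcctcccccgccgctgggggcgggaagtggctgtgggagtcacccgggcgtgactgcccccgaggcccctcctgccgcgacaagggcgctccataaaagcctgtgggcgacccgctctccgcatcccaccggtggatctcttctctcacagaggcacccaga
Ramp3: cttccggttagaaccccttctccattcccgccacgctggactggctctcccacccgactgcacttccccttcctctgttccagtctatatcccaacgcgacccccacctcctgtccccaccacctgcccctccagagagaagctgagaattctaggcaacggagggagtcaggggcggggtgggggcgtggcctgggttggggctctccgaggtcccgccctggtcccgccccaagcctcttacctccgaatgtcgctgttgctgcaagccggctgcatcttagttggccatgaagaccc
TATAAA was found in the Mch window, with its first base at position -27, and in the Hcrt window, at position -33, counted from the start of the gene. The Npy and Ramp3 windows did not hold these letters. TATAAA was present in 13.6% of all 32851 promoter windows of the same length. The cAMP response motif TGACGTCA and its core CGTCA, which is part of it, were in none of the 4 windows on either strand, and in 1.79% and 20.8% of all windows. The GC content was 39.0% in the Mch window, 53.3% in Hcrt, 68.0% in Npy and 63.7% in Ramp3, against a median of 52.7% over all windows.

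Pools were counted on the nCounter platform, where a barcoded probe is counted for every mRNA. The total count of the 43 target genes was 112974 to 219509 in the hindbrain pools (median 151413.5) and 187088 to 305131 in the midbrain pools (median 267755.5). A background per pool was set from its negative control probes (mean plus 2 SD), and its median was 14.2 counts in the hindbrain and 24.1 in the midbrain. Of the 43 genes, 40 were above background in all 24 pools, and the exceptions were the hormone genes Ins1, Ins2 and Amylin. The values below are normalised counts, that is counts divided by the geometric mean of the 3 reference genes of the pool and rescaled by the average of this mean in the 24 pools. One probe was read per target, so levels are compared between pools and not between genes.

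The scale matters for small differences. The target total divided by the reference gene mean was 32.7 ± 1.44 in the hindbrain (SD, n = 12) and 43.1 ± 1.45 in the midbrain (SD, n = 12), so that the midbrain pools held more target counts per reference count. The reference gene mean over the mean of the positive control probes was 9.47 ± 1.18 in the hindbrain (SD, n = 12) and 8.95 ± 0.75 in the midbrain (SD, n = 12). The reference gene B2m alone had a median of 24727 normalised counts in the hindbrain and 24261 in the midbrain. On the reference gene scale the median log2 fold-change of the 43 genes, midbrain over hindbrain, was 0.37, and it was 0.07 with TMM normalization, 0.30 with the positive control probes, 0.02 with DESeq2's median-ratio size factors and -0.03 with the target total.

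One hindbrain library stood apart. T1 hindbrain pool 2/7 had 374 normalised counts of Ins1, against 3.31 to 93.4 in the other 11 hindbrain pools. It had 209 of Amylin (3.31 to 46.1 in the others), 262 of Agrp (26.6 to 72.5), 127 of Hcrt (15.1 to 54.9) and 289 of Mch (103 to 171). It also had 395 of Hdc (185 to 255) and 153 of Socs3 (28.4 to 63.7), and Socs3, an inhibitor of leptin and insulin signals, was picked for naming with its values known. The other members of the β-cell and hypothalamic lists did not stand out in this pool, with 15.0 of Ins2 (13.2 to 27.9 in the others) and 315 of Pomc (65.6 to 429). The next highest pool for Ins1, Amylin, Agrp, Hcrt, Socs3, Mch and Hdc was T1 hindbrain pool 6. For some of the genes high in pool 2/7, the fold-change is also given without its pair. It is not given for others with their highest hindbrain count in that pool, such as Calcr, Ramp3, Lepr and Npy.

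Fold-changes are midbrain over hindbrain on the log2 scale, fitted to the counts of the 12 pairs in edgeR with the pair as a block, and each is given with its standard error (SE). The edgeR adjusted p is the p of the quasi-likelihood test after Benjamini-Hochberg adjustment over the 43 genes. A gene passed both limits with an adjusted p under 0.05 and more than a 2-fold difference. Of the 43 genes, 10 passed both limits (23.3%), 9 higher (20.9%) and 1 lower (2.33%) in the midbrain. By adjusted p alone, 35 of the 43 passed (81.4%), 28 higher (65.1%) and 7 lower (16.3%). The split moved with the scale, to 16 higher and 16 lower with TMM, to 15 and 20 with DESeq2's median-ratio size factors and to 14 and 20 with the target total. The midbrain and hindbrain pools did not overlap for 18 genes (41.9%), 14 higher (32.6%) and 4 lower (9.3%) in the midbrain. In pieces of tissue, fewer cells of a type and less RNA per cell cannot be told apart.

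**Figure D1:**
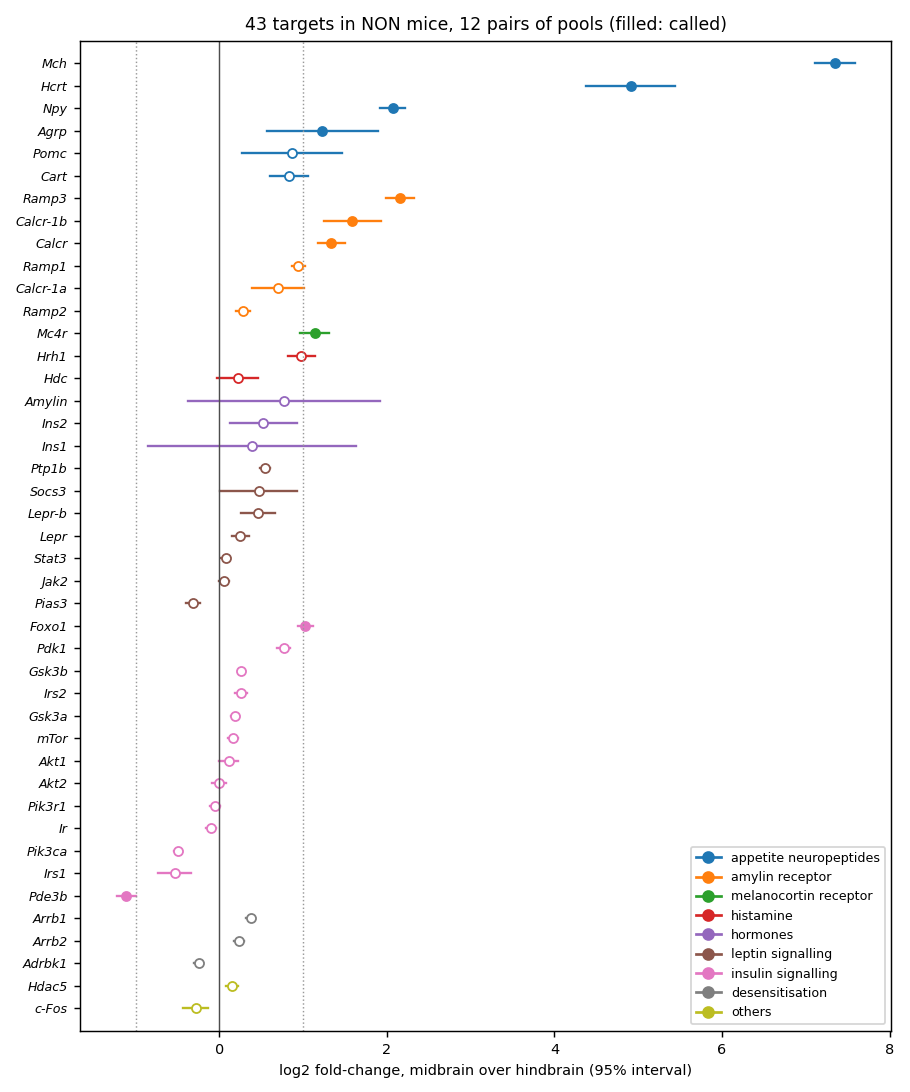
Log2 fold-change of each of the 43 genes, midbrain over hindbrain, in 12 pairs of NON pools (points) with its 95% interval (bars), coloured by gene group; filled points passed both limits and the dotted lines mark a log2 fold-change of -1 and 1. The 10 filled genes run from Mch at 7.35 to Pde3b at -1.11, and most of the rest lie between 0 and 1.

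The 6 appetite neuropeptides were all higher in the midbrain by adjusted p, and 4 of the 6 passed both limits, against 65.1% and 20.9% of all genes in that direction. Their median log2 fold-change was 1.65, against 0.37 over all 43 genes. Mch and Hcrt, the peptides of the lateral hypothalamus, had the largest differences of all genes measured. Npy and Agrp, which raise food intake, also passed both limits, and Pomc and Cart, whose products lower it, did not reach 2-fold.

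Mch, the precursor of melanin-concentrating hormone, had 103 to 289 normalised counts in the hindbrain pools (median 138) and 21891 to 29699 in the midbrain pools (median 23683). The pools were far apart in every pair, with the midbrain 90.2 to 242 times the hindbrain. The log2 fold-change was 7.35 (SE 0.11, edgeR adjusted p = 1.58e-17), a 163-fold difference, and it was 7.43 without T1 pair 2/7. Hindbrain Mch was above background in all 12 pools, at 0.624% of the midbrain mean. Its hindbrain values varied more than its midbrain values, with a coefficient of variation of 31.9% against 9.14%, and the hindbrain figure was 15.6% without T1 pool 2/7.

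Hcrt, the precursor of the orexins, which sustain wakefulness and feeding, had 15.1 to 127 normalised counts in the hindbrain (median 24.5) and 741 to 947 in the midbrain (median 851). The lowest midbrain pool was above the highest hindbrain pool, T1 pool 2/7. Its log2 fold-change was 4.91 (SE 0.25, edgeR adjusted p = 4.60e-11), a 30.0-fold difference, and 5.13 without pair 2/7.

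Npy, neuropeptide Y, which stimulates feeding and is also made by many interneurons outside the hypothalamus, had 3654 to 4309 normalised counts in the hindbrain (median 3857) and 12142 to 21602 in the midbrain (median 16340). The regions did not overlap, and the spread was wider in the midbrain (coefficient of variation 18.5%) than in the hindbrain (5.62%). For Npy the log2 fold-change was 2.07 (SE 0.07, edgeR adjusted p = 7.00e-13), or 4.20-fold.

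Agrp, agouti-related peptide, the endogenous antagonist of melanocortin receptors, had 26.6 to 262 normalised counts in the hindbrain (median 37.6) and 75.1 to 156 in the midbrain (median 114). The midbrain was higher in 11 of 12 pairs, and the exception was pair 2/7 of T1, whose hindbrain pool was above every midbrain pool. The log2 fold-change was 1.23 (SE 0.31, edgeR adjusted p = 0.00197), and 1.47 without pair 2/7. Agrp was under the 2-fold limit with TMM (0.93), with DESeq2's median-ratio size factors (0.89) and with the target total (0.83). In the 4 AM pairs alone, which include that pair, it was 0.89 (edgeR adjusted p = 0.341, the highest over all its alternatives).

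Pomc and Cart passed by adjusted p only. Pomc, the precursor of the appetite suppressant α-MSH, had 65.6 to 429 normalised counts in the hindbrain (median 160) and 168 to 415 in the midbrain (median 321). The regions overlapped, and the midbrain was higher in 9 of 12 pairs; in T1 pairs 2/7 and 8/9 and T2 pair 2/15 the hindbrain pool was higher. The log2 fold-change was 0.87 (SE 0.28, edgeR adjusted p = 0.00974), and 0.47 with an adjusted p of 0.145 on the target total. Pomc did not pass with TMM, with DESeq2's median-ratio size factors or in the AM pairs either (edgeR adjusted p = 0.213 there, the highest over its alternatives). Cart, an appetite suppressing peptide made in Pomc neurons among others, had 2028 to 3718 normalised counts in the hindbrain (median 2534) and 3316 to 6106 in the midbrain (median 4610). Cart was higher in the midbrain in all 12 pairs although the ranges overlapped, with a log2 fold-change of 0.83 (SE 0.11, edgeR adjusted p = 3.20e-06).

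**Figure D2:**
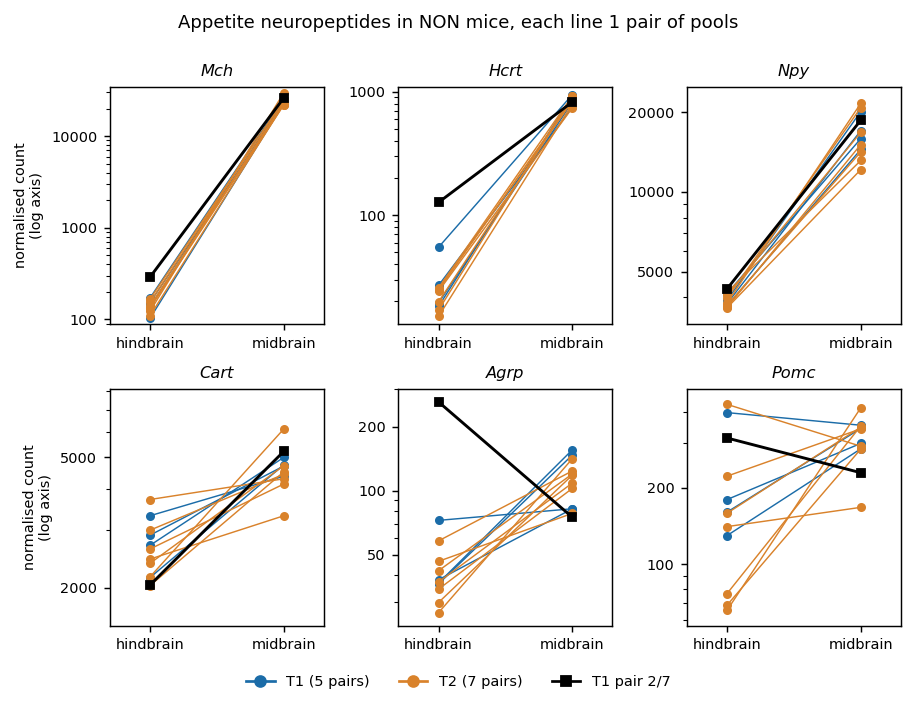
Normalised counts (log axis) of the 6 appetite neuropeptides in the hindbrain and midbrain of NON mice, each line joining the pools of 1 pair, blue for T1, orange for T2 and black squares for T1 pair 2/7. Mch, Hcrt and Npy do not overlap between regions, Cart goes up in all 12 pairs, and Agrp falls only in pair 2/7.

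The hypothalamus was checked by the 5 marker genes Hcrt, Mch, Agrp, Pomc and Hdc. Their summed level was 510 to 1388 normalised counts in the hindbrain pools (mean 673, SD 250, n = 12) and 23171 to 31418 in the midbrain pools (mean 25754, SD 2289, n = 12). Most of the midbrain sum was Mch, with a mean of 24213 normalised counts, so the sum mainly repeats the Mch values. In the hindbrain the Hdc probe gave the highest mean count of the 5. Each gene has its own probe, so this does not rank the genes by level. All 5 were above background in every pool of both regions. The study places the hypothalamus in the midbrain piece, and 4 of the 5 markers were higher there by adjusted p, against 65.1% of all genes. The CodeSet had no marker of cerebellum or pons, so the hindbrain label was not checked by a marker of its own.

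The amylin receptor group, the calcitonin receptor and the 3 Ramps, was higher in the midbrain for all 6 probes by adjusted p, with a median log2 fold-change of 1.14 against 0.37 over all genes. Of the 6, 3 passed both limits, Ramp3, Calcr-1b and Calcr. Over all genes 65.1% were higher by adjusted p and 20.9% were higher past both limits. The 3 Calcr probes read 1 gene and are not independent of each other.

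Ramp3, which turns the calcitonin receptor into an amylin receptor, had 516 to 946 normalised counts in the hindbrain (median 709) and 2787 to 3569 in the midbrain (median 3218). The regions did not overlap and the midbrain was 3.37 to 6.60 times the hindbrain within pairs. The log2 fold-change was 2.15 (SE 0.08, edgeR adjusted p = 1.44e-12), or 4.45-fold. Ramp1, which does the same and also forms the receptor of calcitonin gene-related peptide, had 4117 to 5107 normalised counts in the hindbrain (median 4514) and 8300 to 9337 in the midbrain (median 8580). Ramp1 lay just under the 2-fold limit, with a log2 fold-change of 0.94 (SE 0.03, edgeR adjusted p = 1.44e-12) and no overlap. Ramp2, best known as the partner in the adrenomedullin receptor, had 1488 to 2064 normalised counts in the hindbrain (median 1725) and 1849 to 2409 in the midbrain (median 2047). Its log2 fold-change was 0.29 (SE 0.04, edgeR adjusted p = 6.80e-06) with the midbrain higher in all 12 pairs, but its direction turned to -0.01 with TMM, -0.07 with DESeq2's median-ratio size factors and -0.11 with the target total.

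Calcr, the calcitonin receptor as read by a probe for the gene, had 260 to 489 normalised counts in the hindbrain (median 329) and 756 to 958 in the midbrain (median 872). The regions did not overlap, and the log2 fold-change was 1.33 (SE 0.08, edgeR adjusted p = 2.10e-10). Calcr fell just under the 2-fold limit with DESeq2's median-ratio size factors (0.98) and the target total (0.93). The probe named for the isoform Calcr-1b had 26.7 to 75.3 normalised counts in the hindbrain (median 49.4) and 115 to 196 in the midbrain (median 161), again without overlap. Its log2 fold-change was 1.59 (SE 0.16, edgeR adjusted p = 2.34e-07). The probe named for Calcr-1a had 45.5 to 72.7 normalised counts in the hindbrain (median 60.0) and 50.9 to 111 in the midbrain (median 102). Calcr-1a overlapped between regions, was higher in the midbrain in 11 of 12 pairs, and had a log2 fold-change of 0.70 (SE 0.15, edgeR adjusted p = 0.000431). Calcr-1a did not pass on the target total (0.30, edgeR adjusted p = 0.0777) or in the AM pairs (0.73, edgeR adjusted p = 0.116). Whether the fold-changes of the Calcr probes differ from each other was not tested.

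Mc4r, the receptor of α-MSH and Agrp, had 435 to 826 normalised counts in the hindbrain (median 479) and 1014 to 1366 in the midbrain (median 1097). The regions did not overlap, although T1 hindbrain pool 2/7 was far above the other hindbrain pools. This gave a log2 fold-change of 1.14 (SE 0.08, edgeR adjusted p = 2.26e-09), and 1.20 without pair 2/7. Mc4r fell under the 2-fold limit on other scales (0.84 with TMM, 0.78 with DESeq2's median-ratio size factors, 0.74 with the target total) and in the AM pairs (0.96). Of the 2 histamine genes, Hrh1, the H1 receptor, had 469 to 792 normalised counts in the hindbrain (median 606) and 1054 to 1349 in the midbrain (median 1164), also without overlap. Its log2 fold-change of 0.98 (SE 0.08, edgeR adjusted p = 8.68e-09) was just under the 2-fold limit and was 1.02 without pair 2/7.

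Hdc, the enzyme that makes histamine in neurons of the posterior hypothalamus, had 185 to 395 normalised counts in the hindbrain (median 212) and 214 to 329 in the midbrain (median 261). It was the 1 hypothalamic marker that did not pass the test. Its log2 fold-change was 0.22 (SE 0.11, edgeR adjusted p = 0.0812, with a 95% interval of -0.02 to 0.46). Without pair 2/7 it was 0.30 (edgeR adjusted p = 0.0032, against 0.74 at the highest of all its alternatives), and it turned to -0.08 with TMM, -0.14 with DESeq2's median-ratio size factors and -0.18 with the target total.

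**Figure D3:**
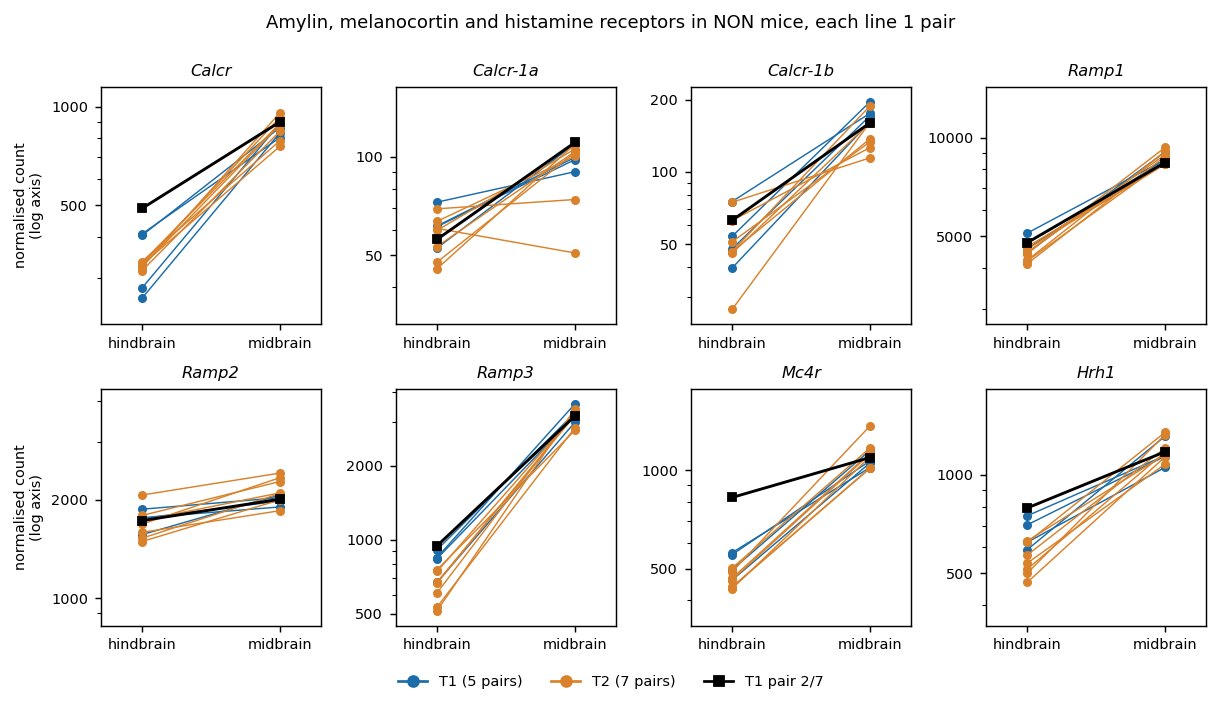
Normalised counts (log axis) of the 6 amylin receptor probes, Mc4r and Hrh1 in the hindbrain and midbrain of NON mice, each line joining the pools of 1 pair, blue for T1, orange for T2 and black squares for T1 pair 2/7. Ramp3 has the steepest lines, Ramp2 the flattest, and Calcr-1a falls in 1 pair of T2.

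The 3 hormone genes were read close to background. Ins1 was above it in 6 of 12 hindbrain and 8 of 12 midbrain pools, Amylin in 7 and 8, and Ins2 in 9 and 9. The summed level of these β-cell genes was 19.9 to 598 normalised counts in the hindbrain (median 50.6) and 45.2 to 152 in the midbrain (median 94.5). Ins1 had 3.31 to 374 normalised counts in the hindbrain (median 15.8) and 11.3 to 48.6 in the midbrain (median 32.6), with a log2 fold-change of 0.39 (SE 0.58, edgeR adjusted p = 0.528). Its sign was not stable and was negative on the target total (-0.02). Amylin had 3.31 to 209 normalised counts in the hindbrain (median 15.6) and 12.1 to 99.2 in the midbrain (median 30.0), with a log2 fold-change of 0.77 (SE 0.54, edgeR adjusted p = 0.182). Without T1 pair 2/7, Ins1 was at 0.71 (edgeR adjusted p = 0.145) and Amylin at 1.10 (edgeR adjusted p = 0.0257). Without T1 pairs 2/7 and 6, an exclusion chosen after the data were seen, Ins1 was at 1.11 (edgeR adjusted p = 0.0046, against 0.98 at the highest of all its alternatives) and Amylin at 1.42 (edgeR adjusted p = 0.0021, against 0.77). Ins2 had 13.2 to 27.9 normalised counts in the hindbrain (median 18.8) and 17.3 to 37.7 in the midbrain (median 29.5), with overlapping ranges. Ins2 passed by adjusted p (log2 fold-change 0.52, SE 0.19, edgeR adjusted p = 0.0169), and background itself was higher in the midbrain pools. After subtraction of each pool's average negative control count, Ins2 was at 0.62 (edgeR adjusted p = 0.0777), Ins1 at 0.71 (edgeR adjusted p = 0.472) and Amylin at 1.32 (edgeR adjusted p = 0.175). Without pair 2/7 Ins2 was at 0.47 (edgeR adjusted p = 0.0277). Ins2 did not pass with TMM, the positive control probes, DESeq2's median-ratio size factors or the target total (0.13, edgeR adjusted p = 0.543, the highest over its alternatives), nor in the AM or the PM pairs alone.

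In the 12 pairs the genes of leptin signalling differed by less than 1.5-fold between the regions. Of the 7, 0 passed both limits, 4 were higher and 1 was lower by adjusted p (65.1% and 16.3% of all genes), and 2 did not pass, with a median log2 fold-change of 0.25. Lepr, listed as the leptin receptor, and Lepr-b, listed as its b form, the long signalling form, are probes of 1 gene and were picked for naming with their values known. Lepr had 1213 to 1915 normalised counts in the hindbrain (median 1516) and 1587 to 2017 in the midbrain (median 1793), a log2 fold-change of 0.25 (SE 0.05, edgeR adjusted p = 0.000219) that turned to -0.05 with TMM, -0.105 with DESeq2's median-ratio size factors and -0.15 with the target total. Lepr-b had 125 to 280 normalised counts in the hindbrain (median 155) and 185 to 255 in the midbrain (median 222), a log2 fold-change of 0.46 (SE 0.10, edgeR adjusted p = 0.000431) and of 0.52 without pair 2/7. Lepr-b did not pass with TMM (0.16, edgeR adjusted p = 0.125), DESeq2's median-ratio size factors (0.10), the target total (0.06, edgeR adjusted p = 0.582, the highest over its alternatives) or in the AM pairs (0.40). The ranges overlapped for both probes, and the midbrain was higher in 12 of 12 pairs for Lepr and in 11 of 12 for Lepr-b. Jak2, the kinase bound to the leptin receptor, was the member nearest to 0, with 11531 to 15023 normalised counts in the hindbrain (median 13490) and 12123 to 16478 in the midbrain (median 14070). Its log2 fold-change was 0.05 (SE 0.03, edgeR adjusted p = 0.0941) and turned to -0.25 with TMM, -0.30 with DESeq2's median-ratio size factors, -0.35 with the target total and -0.02 with the positive control probes. Ptp1b, a phosphatase that damps leptin and insulin signals, and Pias3, an inhibitor of Stat3, moved apart without overlap between regions, and both were picked for naming with their values known. Ptp1b had 3149 to 4191 normalised counts in the hindbrain (median 3712) and 4509 to 6315 in the midbrain (median 5260), a log2 fold-change of 0.54 (SE 0.03, edgeR adjusted p = 4.60e-11). Pias3 had 1565 to 1922 normalised counts in the hindbrain (median 1747) and 1231 to 1522 in the midbrain (median 1399), a log2 fold-change of -0.32 (SE 0.04, edgeR adjusted p = 4.23e-06). Socs3 was at 0.47 (edgeR adjusted p = 0.0555) and at 0.63 without pair 2/7 (edgeR adjusted p = 0.0018, against 0.78 at the highest of all its alternatives), which is more than 1.5-fold. At T1 Socs3 was at 0.06 (edgeR adjusted p = 0.900) and at T2 at 0.77 (edgeR adjusted p = 0.000679), and the T2 minus T1 difference of 0.73 did not pass the test (95% interval -0.15 to 1.61, edgeR adjusted p = 0.381).

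Insulin signalling held genes of both directions. Of its 13 genes, 6 were higher and 4 lower in the midbrain by adjusted p, 3 did not pass, and the median log2 fold-change was 0.11. The 6 include the target listed as Pdk1, whose identity is given below. Over all 43 genes 81.4% passed by adjusted p, 65.1% higher and 16.3% lower. These splits hold on the reference gene scale only. Over all genes the split was 16 higher and 16 lower with TMM, and 14 and 20 with the target total. In this group Gsk3b, described below, turned to -0.04 and -0.14 on these scales, and the group's split there is not given. Both genes of this group that passed both limits act downstream of Akt, 1 in each direction. Foxo1, a transcription factor held out of the nucleus when insulin signals, had 2317 to 3331 normalised counts in the hindbrain (median 2844) and 5010 to 6255 in the midbrain (median 5672). Foxo1 was higher in every pair without overlap, with a log2 fold-change of 1.02 (SE 0.04, edgeR adjusted p = 4.17e-12), and fell under the 2-fold limit on other scales (0.72 with TMM, 0.62 with the target total). Pde3b, a phosphodiesterase that breaks down cAMP and cGMP, was the 1 gene more than 2-fold lower in the midbrain, with 4063 to 5543 normalised counts in the hindbrain (median 5175) and 2090 to 2485 in the midbrain (median 2326). Its regions did not overlap, the log2 fold-change was -1.11 (SE 0.05, edgeR adjusted p = 1.94e-11), and the hindbrain was 2.16 times the midbrain.

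The target listed as Pdk1 passed by adjusted p, with 3256 to 3764 normalised counts in the hindbrain (median 3492) and 5456 to 6872 in the midbrain (median 5876). The regions did not overlap and the log2 fold-change was 0.77 (SE 0.04, edgeR adjusted p = 2.12e-11). Its probe accession is that of the RefSeq gene Pdk1, pyruvate dehydrogenase kinase 1, whereas the phosphoinositide-dependent kinase of the insulin pathway is the RefSeq gene Pdpk1, which has Pdk1 as a synonym. Akt2, a kinase of the same pathway, was nearest to 0 in the group, with 1147 to 1653 normalised counts in the hindbrain (median 1261) and 1110 to 1394 in the midbrain (median 1317). Its log2 fold-change was -0.01 (SE 0.04, edgeR adjusted p = 0.881), with a 95% interval of -0.09 to 0.08 that changes sign with the scale and with single pairs.

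Apart from Pde3b, 6 genes were lower in the midbrain by adjusted p, and they were picked for naming with their values known. Pik3ca, the catalytic p110α subunit of phosphoinositide kinase, had 20326 to 25531 normalised counts in the hindbrain (median 24028) and 15233 to 18490 in the midbrain (median 16390), with no overlap and a log2 fold-change of -0.49 (SE 0.02, edgeR adjusted p = 4.03e-11). Irs1, an insulin receptor substrate, had 404 to 961 normalised counts in the hindbrain (median 498) and 309 to 445 in the midbrain (median 364). Irs1 was lower in all 12 pairs, with a log2 fold-change of -0.53 (SE 0.09, edgeR adjusted p = 8.28e-05) and of -0.46 without pair 2/7, and it did not pass in the AM pairs (-0.62, edgeR adjusted p = 0.0851). Ir, the insulin receptor, differed little, with 2911 to 3243 normalised counts in the hindbrain (median 3113), 2650 to 3177 in the midbrain (median 2866) and a log2 fold-change of -0.10 (SE 0.03, edgeR adjusted p = 0.00337) that turned to 0.02 with the T3 pairs added and did not pass in the AM pairs or without a reference gene other than B2m (-0.04). c-Fos, an early gene of neuronal activity, varied widely within each region, with 2430 to 7974 normalised counts in the hindbrain (median 4417) and 2617 to 6248 in the midbrain (median 3571). It was lower in the midbrain in 10 of 12 pairs, with a log2 fold-change of -0.28 (SE 0.07, edgeR adjusted p = 0.00126), and an adjusted p of 0.072 without the pair as a block, 0.0822 with all genotypes in 1 model and 0.222 with the T3 pairs added. Pias3 is described above, and Adrbk1 belongs to the next group.

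The 3 genes of receptor desensitisation all passed by adjusted p, as did 81.4% of all genes, with differences of less than 1.5-fold. Adrbk1, a kinase that marks active receptors for arrestins, had 8007 to 9331 normalised counts in the hindbrain (median 8828) and 6974 to 7935 in the midbrain (median 7397), a log2 fold-change of -0.25 (SE 0.02, edgeR adjusted p = 1.51e-07). Arrb1, β-arrestin 1, picked for naming with its values known, had 11689 to 13750 normalised counts in the hindbrain (median 12791) and 15208 to 17390 in the midbrain (median 16739), a log2 fold-change of 0.37 (SE 0.02, edgeR adjusted p = 1.52e-09), which was -0.03 on the target total. Neither gene overlapped between regions. Arrb2, β-arrestin 2, had 5089 to 6038 normalised counts in the hindbrain (median 5364) and 5441 to 6992 in the midbrain (median 6342), a log2 fold-change of 0.23 (SE 0.03, edgeR adjusted p = 9.42e-07), which turned to -0.06 with TMM, -0.12 with DESeq2's median-ratio size factors and -0.17 with the target total. The same scales turned Gsk3b, a kinase inhibited by Akt and also picked with its values known, from 0.26 to -0.04, -0.09 and -0.14. They also turned Hdac5, a histone deacetylase, from 0.16 to -0.14, -0.20 and -0.245. Gsk3b had 14552 to 16206 normalised counts in the hindbrain (median 15215) and 17186 to 19476 in the midbrain (median 18794), without overlap, and Hdac5 had 6759 to 9397 (median 7554) and 7524 to 9585 (median 8391), with overlap. Hdac5 did not pass with the positive control probes (0.08, edgeR adjusted p = 0.236) or in the AM pairs. On the reference gene scale the remaining 6 genes, of which 4 passed by adjusted p, had log2 fold-changes of -0.05 to 0.25.

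**Figure D4:**
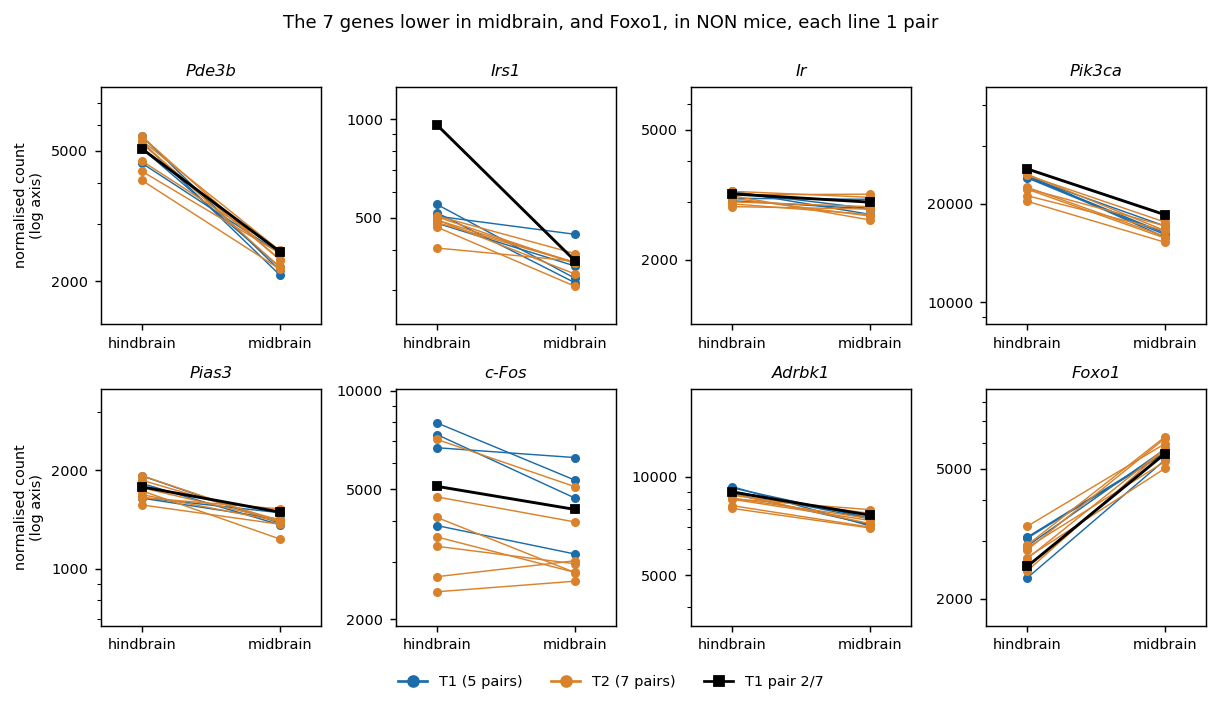
Normalised counts (log axis) of the 7 genes lower in the midbrain by adjusted p, and of Foxo1, in NON mice, each line joining the pools of 1 pair, blue for T1, orange for T2 and black squares for T1 pair 2/7. Pde3b, Irs1, Pik3ca, Pias3 and Adrbk1 go down in all 12 pairs, c-Fos in 10 of 12, and Foxo1 goes up in all 12.

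The comparison was then made within each time point. At T1, with 5 pairs, 8 of 43 genes passed both limits (18.6%), and all 8 were among the 10 genes of the 12 pairs together; Agrp (0.76, edgeR adjusted p = 0.326) and Mc4r (0.92, edgeR adjusted p = 0.000484) were the ones not among them. At T2, with 7 pairs, 12 of 43 passed both limits (27.9%), those 10 with Hrh1 (1.14, edgeR adjusted p = 1.5e-07) and Pomc (1.14, edgeR adjusted p = 0.0193). The difference of the fold-changes between T2 and T1 was tested itself, and 0 of 43 genes had an edgeR adjusted p under 0.05, with 5 genes at an unadjusted p under 0.05. Hrh1 had the lowest p, with a T2 fold-change larger by 0.38 on the log2 scale (95% interval 0.13 to 0.63, edgeR adjusted p = 0.162). Without T1 pair 8/9 that difference was the 1 call made (0.48, edgeR adjusted p = 0.0203, the lowest over all its alternatives). Over the 10 genes that passed both limits, the T2 minus T1 differences ran from -0.11 to 0.92 and their intervals from -0.83 to 2.15, the widest for Agrp (-0.49 to 2.15) and Hcrt (-0.02 to 1.85) and the narrowest for Foxo1 (-0.16 to 0.21). Without T1 pair 2/7, and likewise without T1 pair 6, 0 genes passed the same edgeR test, with 6 at an unadjusted p under 0.05 each time.

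Between PM and AM pairs, 0 of 43 fold-changes differed by the edgeR adjusted p, with 2 genes at an unadjusted p under 0.05. Mch had the lowest p, with a PM fold-change larger by 0.42 on the log2 scale (95% interval 0.09 to 0.76, edgeR adjusted p = 0.560). In the 4 AM pairs alone Mch had a log2 fold-change of 7.06, and in the 8 PM pairs alone 7.51. Of the 10 genes, 8 also passed both limits in the AM pairs, without Agrp and Mc4r, and 9 in the PM pairs, without Foxo1. Cart and Hrh1 were added in the AM pairs and Amylin in the PM pairs. Amylin, read close to background in many pools, was at -0.36 in the AM pairs (edgeR adjusted p = 0.769). T1 pair 2/7 is 1 of the 4 AM pairs. Its hindbrain pool had 209 normalised counts of Amylin and 289 of Mch, each the highest of the hindbrain pools. The AM pairs alone were not fitted without it.

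The same contrast was made in transgenic mice, which are other animals than the NON mice, in 10 HEM and 9 HOM pairs of T1 and T2. The HEM mice were 99 to 100 days old at T1 and 90 to 271 at T2, and the HOM mice 99 to 101 at T1 and 100 to 246 at T2. Of the 5 HEM pairs of T1, 3 had no label of collection time. In HEM pairs 9 of 43 genes passed both limits (20.9%) and in HOM pairs 12 (27.9%). Of the 10 genes of NON mice, 8 were among those of HEM mice, without Agrp and Foxo1, and 9 among those of HOM mice, without Foxo1. Cart passed both limits in HEM (1.54, edgeR adjusted p = 0.00196) and HOM (1.34, edgeR adjusted p = 0.000344), while it was at 0.83 in NON mice. Hrh1 and Socs3 passed both limits in HOM pairs only, and neither did so there with TMM. In HOM midbrain pools Socs3 had a median of 63.4 normalised counts and a highest value of 369, and the midbrain was higher in 7 of 9 pairs. Of the 35 genes that passed by adjusted p in NON mice, 35 had the same sign in HEM pairs and 34 in HOM pairs, with c-Fos (0.13, edgeR adjusted p = 0.507) the exception. Fewer, 27 in HEM and 29 in HOM pairs, had the same sign and also passed by adjusted p there. All 3 genotypes are on the reference gene scale here, and the signs of small differences depend on that scale. Foxo1 was at 0.86 in HEM and 0.84 in HOM, and Pde3b at -1.06 and -1.21.

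The differences of the fold-changes between genotypes did not pass the test. For HEM minus NON, 0 of 43 genes had an edgeR adjusted p under 0.05, with 3 genes at an unadjusted p under 0.05 and Foxo1 the lowest (-0.17, 95% interval -0.30 to -0.03, edgeR adjusted p = 0.401). For HOM minus NON, 0 of 43 passed the same edgeR test, with 3 genes at an unadjusted p under 0.05. Ramp2 came nearest, with a difference of -0.24 (95% interval -0.39 to -0.10, edgeR adjusted p = 0.0637), its log2 fold-change being 0.29 in NON and 0.04 in HOM pairs. In HOM pairs Ramp2 had a median of 2068 normalised counts in the hindbrain and 2137 in the midbrain, with the midbrain higher in 4 of 9 pairs. For the 10 genes, the intervals of the differences ran from -1.38 to 0.57 for HEM and from -1.02 to 0.94 for HOM, and the wide ends belong to Agrp.

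**Figure D5:**
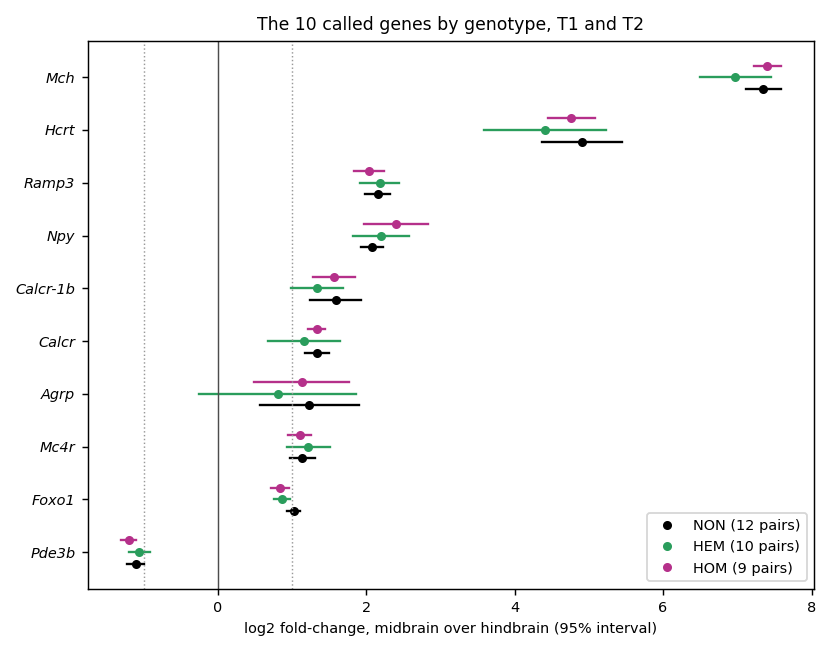
Log2 fold-change of the 10 genes that passed both limits in NON mice, midbrain over hindbrain (points) with 95% intervals (bars), in NON (black, 12 pairs), HEM (green, 10 pairs) and HOM (magenta, 9 pairs) mice of T1 and T2; dotted lines mark -1 and 1. All points keep their sign in the 3 genotypes, Agrp has the widest intervals, and Foxo1 lies under 1 in HEM and HOM.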

How the data were processed

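RNA of 24 NON pools was counted on the nCounter platform, and the authors deposited raw counts per probe, without background correction or normalization, for 43 target genes, 3 reference genes, 8 negative and 6 positive control probes. Pools were grouped by their labels. The members and gene lists were chosen with earlier results of these data known. Counts were fitted in edgeR 4.0.16 (R 4.3.3) taking as library size the reference genes' geometric mean, the region as the term tested and the pair of pools as a block. The pairing comes from the study design, since same-numbered pools hold the same mice; the deviations of paired pools from their region means correlated between -0.72 and 0.05 over genes (median -0.21). Differences of fold-changes were tested as interaction terms, and p-values measure only the spread between these pools. The limits follow the study, an adjusted p under 0.05 and more than 2-fold, with 1.5-fold (0.58 on the log2 scale) as a second limit. The genes given with values were all amylin receptor, hormone, neuropeptide, melanocortin receptor and histamine genes, others past the second limit, and the member nearest to 0 of each other list; 12 more were named after their values were seen. Of the 62 pairs of pools compared within a group, none agreed within sampling noise (chi-square at least 6.83 per degree of freedom). All 43 targets, of 40 genes, matched RefSeq accessions, and sequences are from RefSeq. T3 was left out because hindbrain RNA was low there. The test was first tried on simulated data. Alternatives changed the scale (TMM, positive control probes, target total, DESeq2 1.42.0 size factors, each reference gene left out), the test (DESeq2, limma 3.58.1, an exact sign-flip test), the background, the filter, the limits and the pools.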

Additional observations from a re-analysis of the deposited data

Results flagged for a closer look

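In groups of 5 pools (T1) and 7 pools (T2), a pool was listed where its gap to the nearest pool was too large a share of the group's range by Dixon's 95% limit. Over the 37 genes named, 148 groups of pools were looked at and 12 values were listed, while chance lists about 1 in 20 groups. T1 hindbrain pool 2/7 accounted for 7 of the 12, with 262 normalised counts of Agrp, 209 of Amylin, 374 of Ins1, 961 of Irs1, 280 of Lepr-b, 826 of Mc4r and 153 of Socs3, each above the other T1 hindbrain pools. In the other pools, Amylin was at 99.2 normalised counts in T1 midbrain pool 4/5 and Mch at 29699 in T2 midbrain pool 6/9, both high. In T2 hindbrain pools, Arrb2 was at 6038 and Irs1 at 404 in pool 11/14, the first high and the second low, and Gsk3b was high at 16206 in pool 1/3.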

How the results depend on the processing

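For the 10 genes past both limits, 12 leave-one-pair-out fits gave 10 to 12 calls and kept the same 10 genes each time; 12 came without T1 pair 2/7, with Amylin and Hrh1 added. Without the replicate block there were 10 calls, the same genes, and 35 by adjusted p. DESeq2 and limma on the reference gene scale, the exact sign-flip test (smallest possible p 0.0004883), the low-count filter, which removed 0 genes, negative control subtraction and all genotypes in 1 model also gave those 10. Leaving out T1 pairs 2/7 and 6, chosen after the data were seen, gave 13. With TMM there were 7 calls, with the positive control probes 9, with the target total 6 and with DESeq2's median-ratio size factors 6; every one of these was among the 10, and Agrp, Mc4r, Foxo1 or Calcr dropped under a limit. The limit of 1.5-fold gave 16 genes and adjusted p alone gave 35. Adding the 3 T3 pairs gave 10, with Agrp and Pde3b replaced by Cart and Pomc. At T2 the 12 calls became 7 with TMM and 7 with the target total (10 to 14 with pairs left out), at T1 the 8 calls ranged from 8 to 9 with pairs left out, with 6 with TMM and 7 on the target total and with the positive control probes, in HEM the 9 from 9 to 11, with 7 with TMM and 7 on the target total, and in HOM the 12 from 10 to 13, with 8 with TMM and 7 on the target total. The 0 calls for T2 minus T1 ranged from 0 to 1 with pairs left out (Hrh1, without T1 pair 8/9). The 0 calls for HOM minus NON became 1, always Ramp2, on the target total, without a reference gene other than B2m, and without T1 HEM pair 1/2 (all genotypes share 1 model), T1 HOM pair 8/9 or T2 HOM pair 5 (0 to 1 over all pairs left out). HEM minus NON and PM minus AM stayed at 0 calls in every alternative run.

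Among the 37 genes named, signs turned as follows. The genes not named are not listed, although the split by adjusted p on these scales shows that some of them turned too. With TMM, log2 fold-changes were -0.013 for Ramp2, -0.051 for Lepr, -0.082 for Hdc, -0.25 for Jak2, -0.065 for Arrb2, -0.14 for Hdac5 and -0.037 for Gsk3b. With the target total they were -0.11 for Ramp2, -0.15 for Lepr, -0.017 for Ins1, -0.18 for Hdc, -0.35 for Jak2, -0.17 for Arrb2, -0.245 for Hdac5, -0.027 for Arrb1 and -0.14 for Gsk3b. With DESeq2's median-ratio size factors they were -0.066 for Ramp2, -0.105 for Lepr, -0.14 for Hdc, -0.30 for Jak2, -0.12 for Arrb2, -0.20 for Hdac5 and -0.090 for Gsk3b. These scales differ from the reference genes by a common shift of all genes. Jak2 was at -0.023 with the positive control probes and -0.012 without a reference gene other than B2m. In the AM pairs, which include T1 pair 2/7, Amylin was at -0.36 and Ins1 at -0.12. Ins1 was at -0.28 without the replicate block and -0.031 with T3 added. Akt2 was at 0.060 without another reference gene, 0.016, 0.0007, 0.0009 and 0.0021 without T1 pairs 2/7 and 4/5 and T2 pairs 6/9 and 7/8, 0.034 in the PM pairs, 0.15 with T3 added and 0.020 without T1 pairs 2/7 and 6. Ir was at 0.019 with T3 added. In the tally that follows, a call means past both limits, so a loss of adjusted p alone was not counted for genes without a call. Lepr-b, for one, kept sign and call in 30 of 30 alternatives with an edgeR adjusted p of up to 0.582. The tally also includes the T1, T2, HEM and HOM fits of the genes past both limits. Of the 1700 values of named genes under an alternative, 1594 kept sign and call, 48 lost a call, 20 gained one and 38 turned sign. Apart from the shift of scale, the cause was not tested. Counts near background limit the hormone genes, and 4 AM and 8 PM pairs limit the comparisons within a collection time.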
